A study of Mus musculus with 16 samples.

Results

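The cytosolic ribosomal proteins are the proteins of the large and small subunits of the ribosome that translates nuclear messenger RNAs. They were followed here in polysome-associated RNA from striatal D1 medium spiny neurons (D1-MSN), the projection neurons that carry the D1 dopamine receptor. A gene was a member when a probe set listed it as its only platform gene symbol and the symbol had the form Rpl or Rps with a number, with an optional final a, l, l1, x or y, or was Rplp0, Rplp1, Rplp2 or Rpsa. S6 kinase genes and pseudogenes were left out, and Rpl10a was set apart because it is the ribosome tag protein. The rule found 45 of the 16206 genes, 24 of the large and 21 of the small subunit, on 98 of the 37112 probe sets tested. Rplp1 and Rpl5 had no probe set of their own. They were among 30 ribosomal protein symbols found only on probe sets that list several genes, of which 107 list a ribosomal protein. Rps27a was not measured.

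The deletion group was 9 mice with a tagged ribosome in D1-MSN and a homozygous miR-128-2 deletion specific to the same neurons. The control group was 7 littermates with the tagged ribosome and no deletion, so every animal carried the tag. All mice were C57BL6/J and 3 months old, each array was 1 animal, and the labels name no promoter for the tag or for the deletion. The arrays came from a pair of experimental repeats, with 4 deletion and 4 control arrays in repeat 1 and 5 deletion and 3 control arrays in repeat 2. Their number limits the precision of the values below. Because the authors centred each probe set on its median over the 16 arrays, the values are log2 differences from that median. They give no absolute level, so neither the labelled cell type nor the detection of a member could be checked from them.

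The ribosome is built in the nucleolus and the cytoplasm from ribosomal RNA and roughly equal amounts of each ribosomal protein. The small subunit reads the messenger RNA and the large subunit forms the peptide bond. Many ribosomal protein messages begin with a C followed by a run of pyrimidines, the 5′ terminal oligopyrimidine (TOP) tract, through which mTORC1 and the RNA-binding protein Larp1 control their entry into polysomes. The measurement is of the messages that sat on tagged polysomes and not of ribosomal protein amounts.

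The start windows are shown because the tract lies in these bases and the pulldown takes messages on polysomes. All arrays hold polysome RNA, with no total RNA beside it. Entry into polysomes could therefore not be told apart from the amount of a message. In the RefSeq promoter table (GRCm38.p6), 39 of the 45 members had a start window, and the tract was searched as a C at the first transcribed base with at least 4 further C or T bases, on the transcribed strand only. It was found in 8 of the 39 members (20.5%), 4 of each subunit, against 380 of 12854 genes on the array with a window (2.96%). No match says only that these letters are not at the annotated base. The windows below run from 15 bases before the annotated start through the first 15 transcribed bases, 5′ to 3′, with the tract in capitals. Rps26, which had no tract at its annotated start, is added because it had the largest difference between the repeats among the members.

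Rpl14 (chr9:120571502-120571531, + strand): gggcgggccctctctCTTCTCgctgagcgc
Rpl35 (chr2:39005117-39005146, - strand): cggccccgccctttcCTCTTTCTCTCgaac
Rpl38 (chr11:114668565-114668594, + strand): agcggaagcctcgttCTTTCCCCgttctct
Rplp2 (chr7:141447636-141447665, + strand): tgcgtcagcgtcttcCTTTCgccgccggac
Rps6 (chr4:86857353-86857382, - strand): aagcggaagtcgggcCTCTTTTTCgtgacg
Rps10 (chr17:27635230-27635259, - strand): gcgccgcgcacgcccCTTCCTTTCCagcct
Rps18 (chr17:33955651-33955680, - strand): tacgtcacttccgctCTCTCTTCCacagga
Rps27 (chr3:90213634-90213663, - strand): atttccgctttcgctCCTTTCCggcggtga
Rps26 (chr10:128626492-128626521, - strand): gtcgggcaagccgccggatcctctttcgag

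The deleted gene encodes miR-128-3p, a neuronal microRNA that pairs with its targets through bases 2 to 8, here in capitals. Its mature sequence lies at chr9:112118644-112118664 on the - strand (RefSeq, GRCm38.p6).
miR-128-3p: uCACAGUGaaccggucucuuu

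Some arrays stood apart. Control replicate 3 of repeat 1 and control replicate 1 of repeat 2 had mean values of 12 oligodendrocyte markers of 1.57 and 1.4, and the other 14 arrays were at 0.44 or below. That mean ran from -0.36 to 1.57 in controls and from -0.39 to 0.44 in deletion arrays, and all 12 markers were lower in deletion arrays, with a median difference of -0.34, without passing. The median differences of astrocyte, microglia, cortical neuron and striatal interneuron markers were -0.03, -0.20, -0.19 and -0.23. The 3′ minus 5′ difference of the Gapdh and β-actin control probe sets, which rises as RNA is shortened, was 1.82 on control replicate 1 of repeat 2 and 1.17 on deletion replicate 2 of repeat 2, against -0.66 to 0.41 over the 8 arrays of repeat 1. The mean of the 6 D1 neuron markers measured ranged from -0.27 to 0.07 in controls and from -0.04 to 0.24 in deletion arrays. It was 0.22 ± 0.05 (SE) higher in deletion arrays, by 0.16 within repeat 1 and by 0.29 within repeat 2. In the limma fit 3 of the 6 were higher at an unadjusted p under 0.05, against 4.97% of all genes, and none passed. Its part in the values below was not tested. In such pulldown RNA the sources of a marker difference, whether cell number, RNA per cell or RNA of untagged cells, cannot be told apart.

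Whether the deletion altered ribosomal protein messages on D1-MSN polysomes was the first comparison. No member of either subunit passed the test. The large subunit genes were on average 0.05 ± 0.05 (SE) higher on the log2 scale in deletion arrays and the small subunit genes 0.03 ± 0.07 higher, with 9 deletion and 7 control arrays. The gene-wise test was limma with the experimental repeat in the model, and a call needed a Benjamini-Hochberg adjusted p under 0.05 over all genes. It called 10 of 16206 genes (0.0617%), all higher in deletion arrays, and 0 of the 45 members. At the level of probe sets it called 12 of 37112 (0.0323%) and 0 of the 98 of the members, of which 1 was higher and 0 lower at an unadjusted p under 0.05, where all probe sets gave 3.71% higher and 3.13% lower. For genes at an unadjusted p under 0.05, 1 member was higher (Rpl6) and 0 were lower, where all genes gave 4.97% higher and 3.71% lower. The median difference of the members was 0.03, and 29 of 45 were positive (64.4%), against a median of -0.00 and 45.3% positive over all genes. The sign of the members' median rested on single arrays. It was -0.0032 without deletion replicate 2 of repeat 1, with 25 members negative, -0.0025 without deletion replicate 5 of repeat 2, with 23 negative, and -0.0024 without the 2 control arrays high in oligodendrocyte markers, with 24 negative. With array weights it was 0.09, with 6 negative and 6 higher at an unadjusted p under 0.05.

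The width of the intervals gives the precision of the averaged probe set values. It does not bound a change in the message where a probe set hardly varied, since detection is unknown. For 43 of the 45 members the 95% interval of the difference lay within a 1.5-fold change in either direction. The exceptions were Rps14, whose interval reached 0.60, and Rps4l, whose interval ran from -0.63 to 0.47. The 43 include Rpl39l and Rpl3l, each on 1 probe set, with residual SDs of 0.04 and 0.07. They also include Rps6, whose probe sets differed by 0.26 and -0.24. In no member were the deletion and control arrays separated without overlap, and over all genes 0.037% were.

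**Figure D1:**
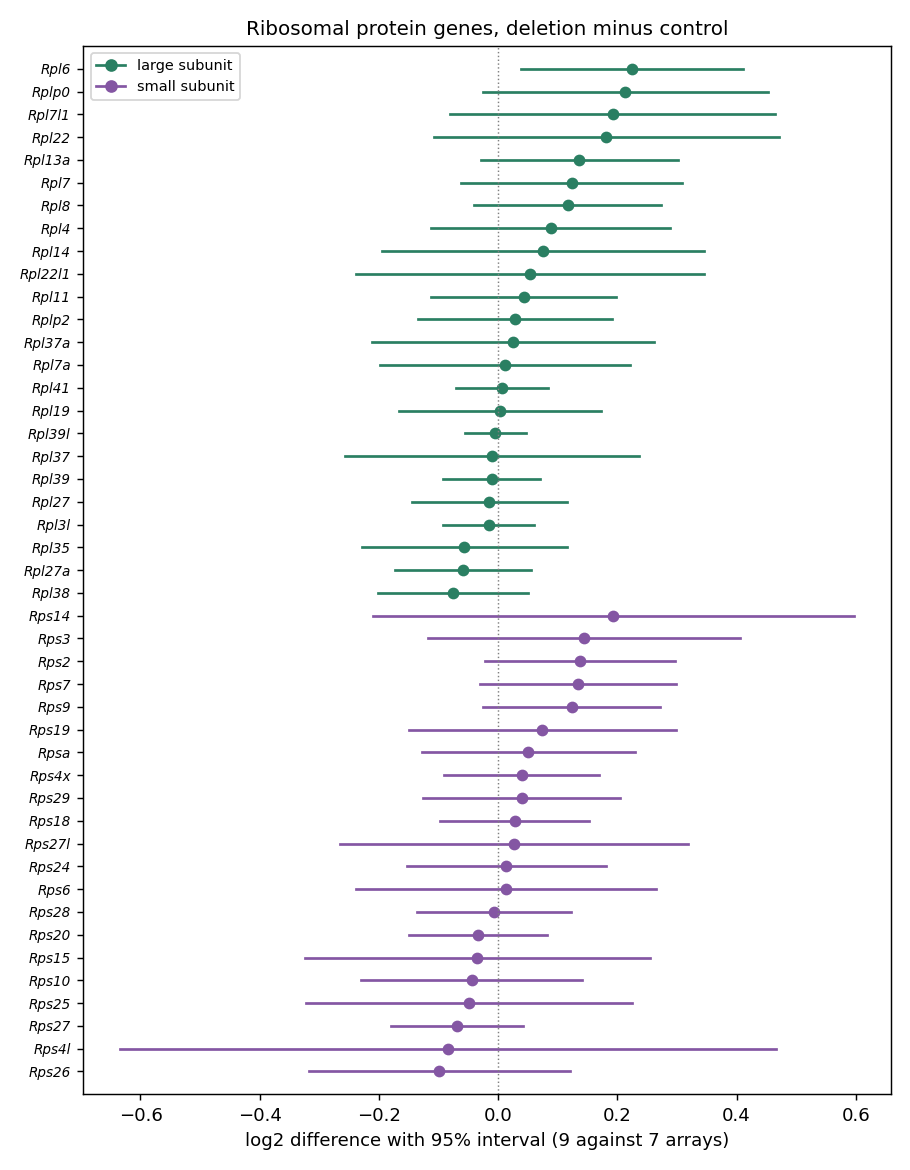
Difference between 9 deletion and 7 control arrays for each of the 45 ribosomal protein genes on the log2 scale, from the model with experimental repeat. Points are estimates, lines are 95% intervals and colour gives the subunit. All intervals cross 0 except that of Rpl6, at 0.22.

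Within the large subunit, the highest values were those of Rpl6, a structural protein of the subunit, and Rplp0, the base of the ribosomal stalk that recruits the elongation factors. Rpl6 read -0.20, -0.01, -0.25 and -0.21 on the control arrays of repeat 1 and -0.07, 0.15, 0.01 and -0.17 on the deletion arrays of repeat 1. In repeat 2 it read -0.47, -0.02 and 0.20 on control arrays and 0.10, 0.09, 0.34, 0.34 and 0.21 on deletion arrays. The groups overlapped in both repeats, although 8 of 9 deletion arrays exceeded the mean of the controls in the same repeat. The difference was 0.22 ± 0.09 (SE), a fold of 1.17 with a 95% interval of 1.03 to 1.33. The unadjusted p was 0.022 and the limma adjusted p 0.48, so the difference did not pass.

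Rplp0 read -0.09, 0.12, -0.24 and -0.12 on the control arrays of repeat 1 and -0.04, 0.18, 0.04 and -0.01 on the deletion arrays. In repeat 2 its control values were -0.67, 0.01 and -0.00, and its deletion values were 0.00, -0.28, 0.38, 0.23 and 0.11. The lowest value belonged to control replicate 1 of repeat 2, the array with high oligodendrocyte markers and a high 3′ minus 5′ difference. The difference of 0.21 ± 0.11 (SE, limma adjusted p = 0.63) became 0.11 ± 0.09 without that array. That of Rpl6 became 0.13 ± 0.06.

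The remaining large subunit genes lay closer to 0. Rpl7l1, a paralog of Rpl7 whose yeast relative acts in ribosome assembly, differed by 0.19 ± 0.13 and Rpl22, an RNA-binding protein of the large subunit, by 0.18 ± 0.14. Without control replicate 1 of repeat 2 these became 0.08 and 0.09. Rpl13a, which leaves the ribosome to silence inflammatory transcripts in myeloid cells, differed by 0.14 ± 0.08. Rpl22l1, the paralog of Rpl22, differed by 0.05 ± 0.14 and Rplp2, a stalk protein carried by Rplp0, by 0.03 ± 0.08. Rpl11, which with Rpl5 binds Mdm2 when ribosome assembly fails, differed by 0.04 ± 0.07. The lowest of the subunit were Rpl38 at -0.08 ± 0.06, known for its part in the translation of Hox messages, Rpl27a at -0.06 ± 0.05 and Rpl35 at -0.06 ± 0.08. The adjusted p of each of these genes was above that of Rpl6.

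Among small subunit genes, Rps14, a protein of the platform whose loss marks the 5q- syndrome in people, differed by 0.19 ± 0.19. It read -0.30, 0.51, -0.46 and -0.21 on the control arrays of repeat 1 and -0.31, 0.20, -0.16 and -0.51 on the deletion arrays. In repeat 2 it read -0.56, 0.06 and 0.22 on control arrays and -0.06, 0.65, 0.24, 0.29 and 0.84 on deletion arrays. The groups overlapped in each repeat. The difference became 0.06 without control replicate 1 of repeat 2, and 0.31 without control replicate 2 of repeat 1. Rps14, like Rps2 below, was read only by probe sets with the suffix _x_at, which marks possible cross-hybridisation.

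The other small subunit genes near the top were Rps3 at 0.14 ± 0.12 and Rps2 at 0.14 ± 0.07, both of which line the entry of the messenger RNA channel. Without control replicate 1 of repeat 2 that of Rps3 was 0.03. Rpsa, the laminin receptor, differed by 0.05 ± 0.08. Rps27l, a p53-induced paralog of Rps27, differed by 0.03 ± 0.14. The lowest were Rps26 at -0.10 ± 0.10, which lies by the exit of the messenger RNA channel, Rps4l at -0.08 ± 0.26, Rps27 at -0.07 ± 0.05, Rps25 at -0.05 ± 0.13, used by viral internal ribosome entry sites, and Rps10 at -0.04 ± 0.09. None of them passed, and the smallest limma adjusted p of the subunit was 0.65, that of Rps2. For Rps27, 1 control array decided the value, since replicate 2 of repeat 1 read 0.39 and the other controls lay between -0.04 and 0.10. Without it the difference of Rps27 was -0.02. The difference of Rps26 was -0.03 without deletion replicate 2 of repeat 2. Of the 25 members whose genotype differences are given, 22 moved by over 1.5 times or changed sign when some single array was left out, and Rpl13a, Rps2 and Rps9 did not.

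**Figure D2:**
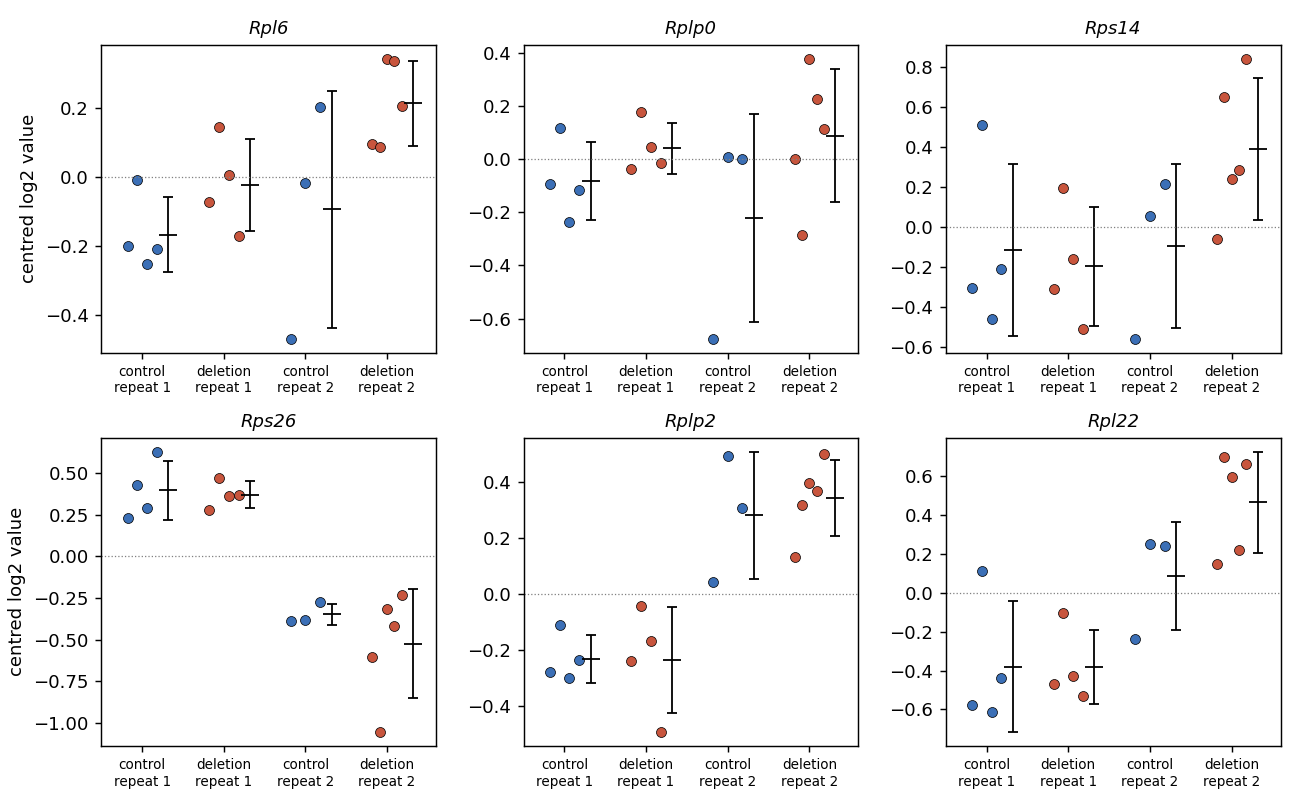
Centred log2 value of 6 ribosomal protein genes on each of the 16 arrays, by genotype and experimental repeat, with each group's mean ± SD (n = 4, 4, 3 and 5 from left to right). Rpl6, Rplp0 and Rps14 overlap between genotypes in both repeats, and Rps26 and Rplp2 separate the repeats without overlap.

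The large subunit was then set against the small subunit, array by array. In control arrays of repeat 1 the large subunit means were -0.13, 0.01, -0.14 and -0.16 and the small subunit means -0.14, 0.17, -0.18 and -0.11. In deletion arrays of repeat 1 they were -0.12, 0.10, -0.11 and -0.16 for the large subunit and -0.14, 0.09, -0.10 and -0.19 for the small subunit. The subunits were low together on 3 arrays of each genotype and higher together on replicate 2 of each. In control arrays of repeat 2 the large subunit means were -0.08, 0.09 and 0.10 and the small subunit means -0.13, 0.08 and 0.10. In deletion arrays of repeat 2 they were -0.01, 0.01, 0.22, 0.07 and 0.25 for the large subunit and -0.06, 0.01, 0.13, 0.09 and 0.32 for the small subunit.

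The large minus small mean stayed between -0.17 and 0.09 on every array, whereas the subunit means themselves ran from -0.16 to 0.25 and from -0.19 to 0.32. Deletion and control arrays differed in this quantity by 0.02 ± 0.03 (SE), by 0.05 within repeat 1 and by -0.00 within repeat 2. The lowest array was control replicate 2 of repeat 1, and without it the difference was 0.00. With _x_at and _s_at probe sets left out, which leaves 22 large and 18 small subunit genes, the large subunit differed by 0.07 ± 0.06, the small by 0.00 ± 0.06 and large minus small by 0.07 ± 0.02. Within repeat 1 the deletion minus control difference was 0.03 for the large and -0.02 for the small subunit, and within repeat 2 it was 0.07 and 0.08. The SD among arrays of a group ran from 0.08 to 0.16 for the large and small subunit means. Their differences within each repeat were smaller than the SDs of that repeat. That spread does not apply to large minus small, whose value of 0.07 ± 0.02 without _x_at and _s_at probe sets had a residual SD of 0.05. Without the 2 control arrays high in oligodendrocyte markers, the large subunit differed by 0.02 ± 0.06 and the small subunit by -0.03 ± 0.07, which turns the direction of the small subunit. The part of RNA shortening and of other cells in these means was not tested.

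**Figure D3:**
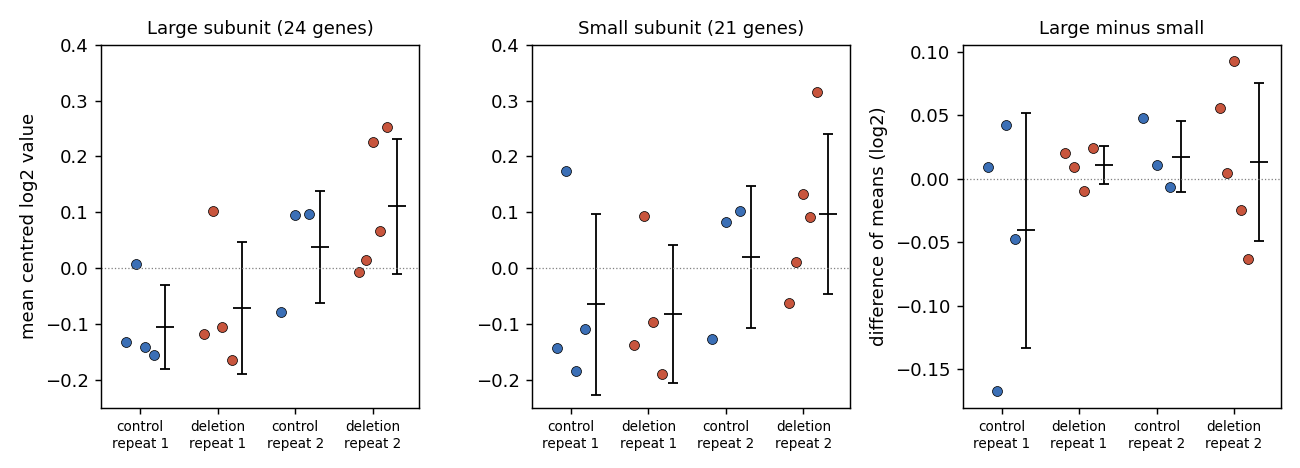
Mean centred log2 value of 24 large subunit genes, of 21 small subunit genes, and their difference, on each of the 16 arrays by genotype and experimental repeat, with each group's mean ± SD (n = 4, 4, 3 and 5 from left to right). The subunits move together over the arrays, and the large minus small difference stays between -0.17 and 0.09.

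The 8 members with a TOP tract at the annotated start did not pass either, and their deletion minus control differences were close to 0. They were 0.08 for Rpl14, -0.06 for Rpl35, -0.08 for Rpl38, 0.03 for Rplp2, 0.01 for Rps6, -0.04 for Rps10, 0.03 for Rps18 and -0.07 for Rps27. The value of Rps6 is the mean of probe sets at 0.26 and -0.24, so it does not show that the message was unchanged.

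Rps6, the small subunit protein phosphorylated by the S6 kinases, gave different answers on its pair of probe sets. On the first it differed by 0.26 ± 0.13, with values from -0.37 to 0.24 in controls and from -0.23 to 0.61 in deletion arrays. On the second it differed by -0.24 ± 0.20, and there control replicate 2 of repeat 1 read 1.58 while the other 15 arrays lay between -0.07 and 0.32. Rps9, a small subunit protein needed for accurate decoding in yeast, differed by 0.32, 0.05 and -0.00 on its 3 probe sets. Rps18 differed by -0.05 to 0.16 on its 6 probe sets. In the authors' deposited table, 2 of the 98 probe sets of the members had a p under 0.05 (2.04%), the first probe set of Rps6 (0.047) and that of Rpl6 (0.029), where 6.16% of all probe sets did.

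Rpl10a, the large subunit protein used as the ribosome tag, was read separately by 1 probe set. Its values were 0.06, 0.19, 0.02 and 0.07 on control arrays of repeat 1 and 0.00, 0.07, -0.01 and -0.00 on deletion arrays. In repeat 2 they were -0.09, -0.15 and 0.04 on control arrays and -0.25, -0.20, -0.12, 0.02 and -0.00 on deletion arrays. The groups overlapped, and the difference was -0.06 ± 0.04 (SE, limma adjusted p = 0.80). Whether the probe set also reads the tagged transcript is not stated in the labels.

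The probe sets that list several genes, with a ribosomal protein among them, gave a like picture over 107 probe sets. None was called, the median difference was 0.04, and 5 were higher and 0 lower at an unadjusted p under 0.05, near the shares over all probe sets given above. These cannot be assigned to 1 gene.

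Whether the genotype difference itself differed between the repeats was tested with an interaction term. It called 0 of 16206 genes (0%) and 0 of the 45 members, with 684 genes but 0 members at an unadjusted p under 0.05. The largest values among the members were 0.57 for Rps14, 0.38 for Rpl22 and -0.36 for Rpl14, a large subunit protein, as the difference in repeat 2 minus that in repeat 1. The smallest adjusted p of a member was 0.93.

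The arrays of the experimental repeats differed in the ribosomal protein genes more than the genotypes did. In the same model, repeat 2 was above repeat 1 in 13 of the 45 members and below in 2, over 8 arrays each. The background was 7.84% of genes above and 7.1% below. The median difference of the members was 0.14, against 0.03 over all genes, and 38 of 45 were positive (84.4%), against 63.5% of all genes. The number of members with a centred value above 0 was 6 to 36 per array in repeat 1 and 23 to 40 in repeat 2. The labels do not say what differed between the repeats, and its part in these values was not tested. The cortical glutamatergic neuron markers also moved with the repeat, with all 6 measured higher in repeat 2 by a median of 0.38, and Tbr1 rose (0.86 ± 0.23, limma adjusted p = 0.022). Their mean was 0.43 ± 0.18 (SE) higher, running from -0.87 to 0.25 in repeat 1 and from -0.49 to 0.45 in repeat 2, and its part was not tested either. The large subunit mean was 0.16 ± 0.05 (SE) higher in repeat 2 and the small subunit mean 0.14 ± 0.07 higher, and the large minus small mean differed by 0.03 ± 0.03.

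The highest members of the large subunit in repeat 2 were Rpl22, by 0.68 ± 0.13 (SE), Rpl14, by 0.67 ± 0.13, Rplp2, by 0.55 ± 0.08, and Rpl22l1, by 0.53 ± 0.14. The stalk proteins differed from each other, since Rplp2 rose while its partner Rplp0 stood at -0.04 ± 0.11. Rplp2 read from -0.49 to -0.04 in repeat 1, with a median of -0.24, and from 0.04 to 0.50 in repeat 2, with a median of 0.34. Its repeats did not overlap, and the fold was 1.46 (limma adjusted p = 0.00034). Rpl13a (0.37), Rpl27 (0.26), Rpl38 (0.23) and Rpl39 (0.17), the last a short protein of the exit tunnel, also rose. Rpl39 did not overlap between repeats either, by a narrow margin, with a highest value of -0.002 in repeat 1 and a lowest of 0.002 in repeat 2. It was read by 1 probe set with a low residual SD of 0.074, and its detection is unknown.

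In the small subunit, Rps27l was higher in repeat 2 by 0.58 ± 0.14, Rps24 by 0.55 ± 0.08, Rps18 by 0.43 ± 0.06, Rps29 by 0.35 ± 0.08 and Rps9 by 0.34 ± 0.07. Rps24, which is mutated in a form of Diamond-Blackfan anaemia, read from -0.55 to -0.03 in repeat 1, with a median of -0.40, and from 0.09 to 0.46 in repeat 2, with a median of 0.17. Rps18, a protein of the head of the subunit, read from -0.38 to -0.05 in repeat 1, with a median of -0.23, and from 0.08 to 0.43 in repeat 2, with a median of 0.16. Neither overlapped between the repeats.

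Rps26 moved the other way. It read 0.23, 0.43, 0.29 and 0.63 on the control arrays of repeat 1 and 0.28, 0.47, 0.37 and 0.37 on the deletion arrays. In repeat 2 it read -0.39, -0.38 and -0.28 on control arrays and -0.61, -1.06, -0.31, -0.42 and -0.23 on deletion arrays. All 8 arrays of repeat 1 lay above all 8 of repeat 2, in both genotypes. It fell by 0.83 ± 0.10 in repeat 2 (fold of 1.78 in favour of repeat 1, limma adjusted p = 0.00014). Rpl7a, a large subunit protein, fell by 0.38 ± 0.10. Rpl10a fell by 0.14 ± 0.04 (limma adjusted p = 0.043).

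**Figure D4:**
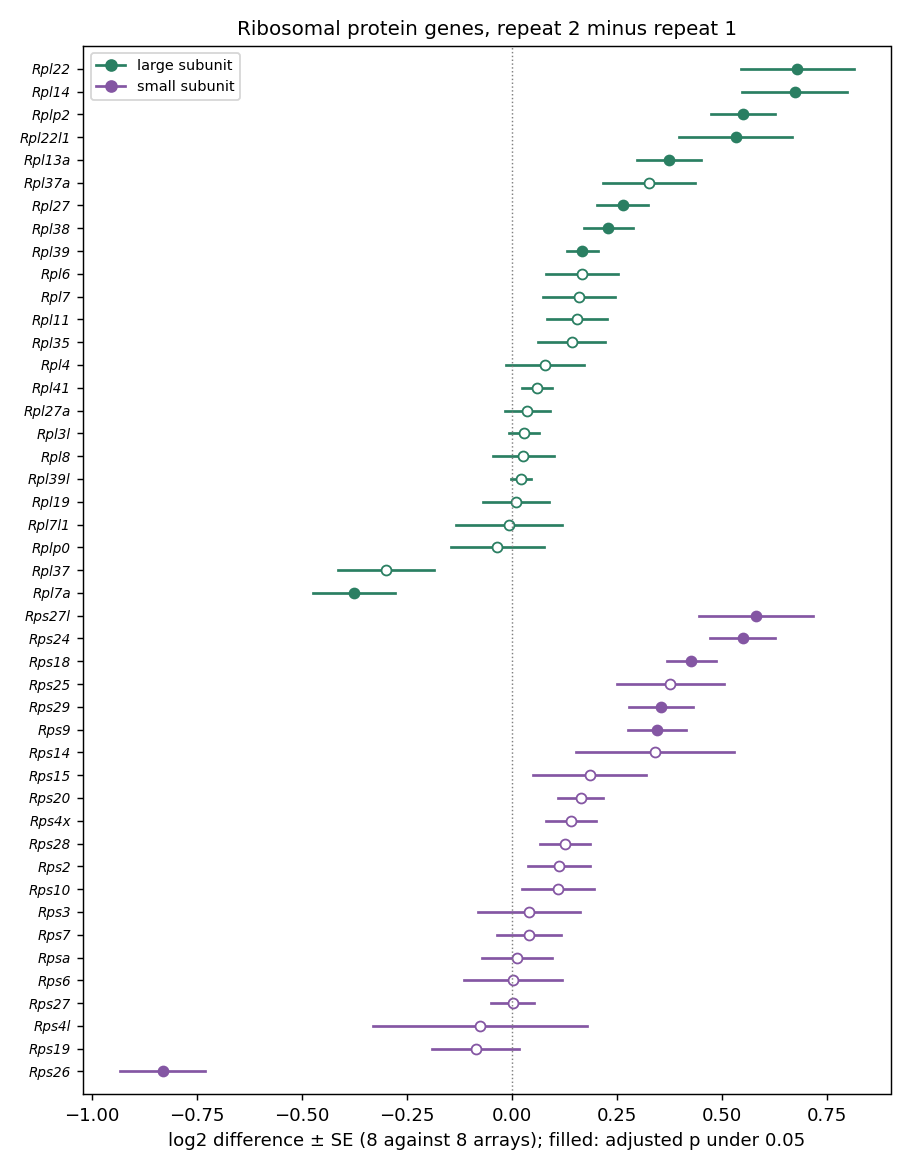
Difference between the 8 arrays of repeat 2 and the 8 of repeat 1 for each of the 45 ribosomal protein genes on the log2 scale, with SE and coloured by subunit. Filled points passed the adjusted threshold (13 above and 2 below). Rps26, at -0.83, and Rpl7a, at -0.38, are the filled points below 0.

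Of the 45 members, 5 had repeats that did not overlap (Rpl39, Rplp2, Rps18, Rps24 and Rps26), where 3.09% of all genes did. The call held for all 15 members with each array left out in turn. In deletion arrays alone 5 members were called above and 1 below, and in control arrays alone 0 above and 1 below (Rps26 in each), with 9 and 7 arrays. Without the 2 control arrays high in oligodendrocyte markers, 14 were above and 1 below, and Rpl7a was no longer called (-0.35). Centring each array on its own median left 13 above and 2 below, with a member median of 0.11. Of the 8 members with a TOP tract, Rpl14, Rpl38, Rplp2 and Rps18 rose, and Rps6 and Rps27 stood at 0.00. The value of Rps6 is the mean of probe sets at 0.12 and -0.12. Rpl35 and Rps10 stood at 0.14 and 0.11 without passing.

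Of the 98 probe sets of the members, 27 were above and 2 below in repeat 2, against 6.35% and 5.53% of all probe sets. Probe sets of a gene often disagreed in this difference. Those of Rpl22 differed by 1.27 ± 0.18, 0.93 ± 0.15 and -0.16 ± 0.20. Of the 6 probe sets of Rps18, those at 1.06 and 0.99 were far above that at 0.38, and 3 others lay between 0.03 and 0.07 and hardly varied over the arrays. For Rps24, 4 probe sets, all with the suffix _x_at that marks possible cross-hybridisation, lay between 0.72 and 0.99, and the other 2 at 0.01. With _x_at and _s_at probe sets left out, Rps24 stood at 0.01 and Rps9 at 0.03, neither called. Rpl38 and Rps29 were among 5 members with no other probe sets, so that their calls rest on probe sets that may cross-hybridise, and 9 of the 40 members left were above and 2 below. Of the probe sets of the members, 14 of 98 (14.3%) had a residual SD under 0.075, against 35.5% of all probe sets.

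**Figure D5:**
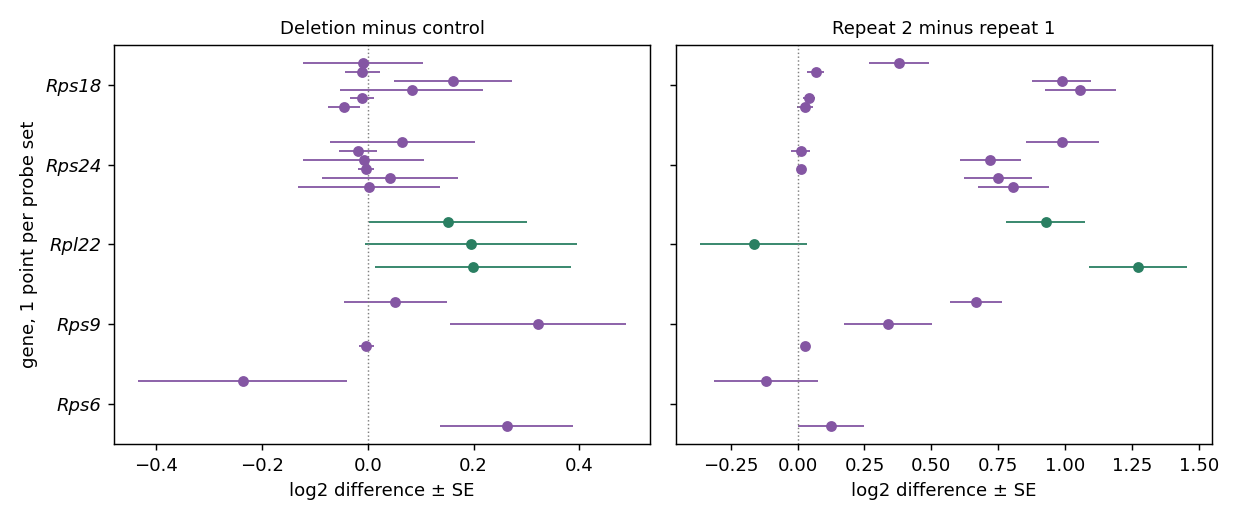
Difference on the log2 scale for each probe set of Rps6, Rps9, Rpl22, Rps24 and Rps18, between genotypes (left) and between repeats (right), with SE, coloured green for the large and purple for the small subunit. The probe sets of Rps6 lie on opposite sides of 0 at left (0.26 and -0.24), and those of Rpl22 spread from -0.16 to 1.27 at right.

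Genes that work beside the ribosomal proteins were taken from lists that share some genes, and no gene of any of these lists passed the genotype test. Of 21 other genes with TOP messages, 14 were positive, with a median of 0.03. The largest differences were 0.27 ± 0.10 for Eef2, which moves the ribosome along the message, and 0.13 ± 0.12 for Eef1b2, which recharges Eef1a1. Of 9 elongation factor genes 7 were positive, and Eef2k, the kinase that inactivates Eef2, stood at -0.22 ± 0.07 (limma adjusted p = 0.37). Of 33 initiation factor genes 22 were positive, with Eif2b5, the catalytic subunit of the eIF2 exchange factor, at 0.47 ± 0.22 and Eif3c at -0.32 ± 0.10.

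Of 35 ribosome biogenesis factors 20 were positive, with a median of 0.04. Lsg1, which releases Nmd3 from the new large subunit, stood at 0.71 ± 0.37 and Fbl, the methyltransferase of ribosomal RNA, at 0.31 ± 0.16. Of 13 genes of RNA polymerase I and its factors 8 were positive, led by Taf1b at 0.35 ± 0.23 and Polr1e at 0.18 ± 0.14. Of 24 genes of the mTORC1 pathway or named as ribosomal S6 kinases 11 were positive, with Rps6ka5, listed by its name, at 0.28 ± 0.16 and Mtor at -0.25 ± 0.08. Of 15 ribosome-associated chaperone and targeting genes 10 were positive, with Sec61a1, the pore that receives nascent secretory proteins, at 0.32 ± 0.08 (limma adjusted p = 0.23) and Metap1, which removes the first methionine, at 0.28 ± 0.14. At an unadjusted p under 0.05, all genes gave 4.97% higher and 3.71% lower. The lists had 1 higher and 0 lower of the 21 TOP genes, and 1 and 1 of the 9 elongation factor genes. The counts were 2 and 1 of the 33 initiation factor genes, and 2 and 2 of the 35 biogenesis factors. They were 0 and 0 of the 13 RNA polymerase I genes, 0 and 2 of the 24 mTORC1 list genes, and 1 and 2 of the 15 chaperone list genes.

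The 76 mitochondrial ribosomal protein genes serve the separate ribosome of the mitochondrion. None passed the genotype test, 55 were positive, the median was 0.07, and 7 were higher and 2 lower at an unadjusted p under 0.05. Over all genes 45.3% were positive, 4.97% higher and 3.71% lower. The largest differences were 0.36 ± 0.10 for Mrpl24 (limma adjusted p = 0.32) and 0.32 ± 0.14 for Mrpl18.

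Between the repeats, each list's share of genes called is set beside that of all genes, of which 7.84% rose and 7.1% fell. Of the 21 other TOP genes 6 rose and 2 fell in repeat 2 (28.6% and 9.52%). Btf3 (0.55 ± 0.06) and Naca (0.52 ± 0.10), the partners of the nascent chain complex, rose, as did Npm1 (0.52 ± 0.09), while Eef2 (-0.44 ± 0.10) and Eef1a1 (-0.19 ± 0.05) fell. Of the 9 elongation factor genes 1 rose and 4 fell (11.1% and 44.4%). Its rise, Eef1b2, and its falls of Eef2 and Eef1a1 are also counted among the TOP genes. Naca and Btf3 are in the chaperone list too, and Npm1 is in the biogenesis list. Of the biogenesis factors 7 rose and none fell (20% and 0%), among them Nmd3 (0.54 ± 0.08), which exports the large subunit. Among initiation factor genes 2 rose and 3 fell (6.06% and 9.09%), near the shares over all genes. Eif5b (0.83 ± 0.08), which joins the subunits, was the highest of them. Of the mitochondrial ribosomal protein genes 14 rose and 2 fell (18.4% and 2.63%). For RNA polymerase I and its factors the count was 1 and 0 (7.69% and 0%). For the mTORC1 list it was 4 and 2 (16.7% and 8.33%), and for the chaperone list 3 and 3 (20% each).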

How the data were processed

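The deposited values are log2 expression from Affymetrix mouse arrays. Per the submitters' processing notes, GCOS 1.4 and GCRMA were used, and the values show that the authors centred each probe set on its median over the 16 arrays, so no filter on dim probe sets was possible. The authors also deposited a p-value per probe set, which per the file headers tests genotype in a 2-factor model. The 16 columns of values in that table were not used. Of 37174 probe sets, 62 Affymetrix controls were left out. The platform annotation gave 1 gene for 29680, several for 819 and none for 6613, and 29539 matched RefSeq symbols. Probe sets of a gene were averaged (16206 genes). limma 3.58.1 in R 4.3.3 fitted genotype and experimental repeat, after a check on simulated data, with p-values adjusted over all genes or all probe sets. Replicate numbers were not used to pair the animals, since the labels do not say that a number marks a shared litter or day. Correlations of same-numbered deviations ran from -0.30 to 0.43, which leaves a pairing unsettled. The genes named were members that passed, the 8 largest rises and falls, members with set roles, 3 with disagreeing probe sets, 3 with the largest interaction and, per list, the largest differences; repeat calls and other genes were added. Members and lists were chosen with earlier results of these data known. Alternatives for the repeat, interaction and probe set results were chosen after seeing the data.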

Additional observations from a re-analysis of the deposited data

Results flagged for a closer look

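Within groups of 4 or 5 arrays, 9 values lay far from the rest of their group, out of 102 groups tested, and chance gives about 1 in 20. Control replicate 2 of repeat 1 accounted for 4 of them. On that array the large subunit mean was 0.0067 (others -0.16 to -0.13), Rps27 read 0.39 (others -0.04 to -0.01), Rps6 read 0.71 (others -0.22 to -0.14) and Rps24 read -0.031 (others -0.44 to -0.38). Deletion replicate 2 of repeat 1 accounted for 3, with Rpl13a at 0.026 (others -0.22 to -0.18), Rps29 at 0.0097 (others -0.31) and Rpl10a at 0.072 (others -0.01 to 0.00). The remaining values were Rps27l on control replicate 3 of repeat 1, at -0.71 (others -0.10 to -0.09), and Rpl39 on deletion replicate 4 of repeat 1, at -0.12 (others -0.05).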

How the results depend on the processing

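No ribosomal protein gene was called between genotypes under any alternative run. The count over all genes, 10, was 4 without the repeat term, 6 with an interaction term, 16 with array weights, 1 without the 2 control arrays high in oligodendrocyte markers and 2 to 10 with each array left out in turn. With the replicate number as a block it was 1. The large and small subunit means were then 0.04 ± 0.03 and -0.01 ± 0.03 (SE), where the SEs without the block were 0.05 and 0.07. With the block, deletion replicates 4 and 5 of repeat 2 have no control of the same number. They add nothing to the genotype difference, so the fits with and without the block rest on different arrays. The block changed no call of a member. Over all alternatives for the other choices, the large subunit mean stayed positive, at 0.10 with array weights, and the small subunit mean was negative only without the 2 control arrays (-0.03) or without control replicate 1 of repeat 2 (-0.01). With each array left out in turn the means ran from 0.03 to 0.07 and from -0.01 to 0.07, and large minus small from 0.00 to 0.04. Large minus small was 0.07 without _x_at and _s_at probe sets, 0.05 without the 2 control arrays and 0.04 with the block. Of the 25 members whose genotype differences are given, 14 changed sign under some alternative, in 33 of 647 values. The count of 15 members called between repeats was 6 in deletion arrays alone and 1 in control arrays alone, where fewer arrays were fitted; no sign of these members turned. Depth does not apply to centred array values, and signal over background is unknown.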
